A study of Mus musculus with 10 samples.

Results

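The genes described here encode the protein components of the cytosolic ribosome, as measured by RNA sequencing in the mouse retina. Members were chosen by symbol alone: rows of the count table named Rpl, Rplp or Rps with a number, with or without a closing a, x, y or l, but without Rplp0, Rps3a1 and Rps3a3. The rule found 83 of 36115 rows, 51 for the large subunit (Rpl and Rplp names) and 32 for the small subunit (Rps names). Of these, 80 are annotated as protein-coding, and 74 of the 80 are canonical ribosomal proteins while 6 are paralogs (Rpl3l, Rpl7l1, Rpl10l, Rpl22l1, Rpl39l and Rps27l). The other 3 rows, Rpl6l, Rps3a2 and Rps4l, are annotated as processed pseudogenes, which are intron-free copies of a messenger RNA inserted elsewhere in the genome. Several genes of the ribosome fall outside the rule because their symbols have another form, among them Rpsa, Fau and Rack1.

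Each ribosome joins a small subunit, which decodes the messenger RNA, to a large subunit, which forms the peptide bond, and nearly every subunit protein is needed in equal number. Cells hold the members at matched levels partly through a tract of pyrimidines at the very start of their messenger RNAs, the TOP motif, through which mTOR signalling sets how strongly they are translated. Because ribosomal protein messenger RNAs are abundant, retrotransposition has left many processed pseudogenes whose sequence is nearly that of the parent, so that short reads of copy and parent are hard to tell apart.

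Wild-type retinas (5 libraries, W1 to W5) were compared with retinas of the line B6.129S2-Il6tm1Kopf/J (5 libraries, K1 to K5), in which the interleukin-6 gene is disrupted by a targeted allele carried from 129S2 onto C57BL/6. All mice were untreated and 3 months of age, and the background label of both groups is C57BL/6. Genotype is the only contrast in the labels, and it compares the lines in the retina without injury. Any other difference between the lines goes with this label and cannot be told apart from the loss of Il6. Whether each library is from its own animal is not in the labels, so p-values here reflect only how these samples scatter, some of which may be technical.

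Total counts ran from 30433373 to 38857374 per library. Il6 had 0, 0, 1, 1 and 1 counts across W1-W5 and 3, 3, 5, 7 and 4 across K1-K5, which goes against the labels, so the second group is called the libraries labelled knockout and every direction below rests on that label. The rod gene Sag ran from 4108 to 8508 CPM (read counts relative to the library total, scaled with edgeR's TMM factors), and the lens gene Cryaa from 0 to 0.309 CPM. Markers of retinal pigment epithelium summed to between 113 and 489 CPM. Over all tested genes edgeR called 2.03% (adjusted p under 0.05). Of 12 rod markers 1 was called, Sag, lower in the libraries labelled knockout, and of 12 microglia markers 1, C1qc, higher; 10 of the 12 microglia markers were positive, with a median log2 ratio of 0.32 and 4 at an unadjusted p under 0.05. K5 has another second index in its label than the other 9 libraries.

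The retina expressed most canonical ribosomal protein genes at high levels, but per kilobase they ran from 3.04 CPM (Rpl24) to 673 CPM (Rplp1). Of the 80 coding members, 52 were at or above 100 CPM in every library. Per kilobase of transcript, the only scale on which levels are compared between genes here, the median coding member was at 188 CPM. The highest was Rplp1, at 673 CPM per kilobase, an acidic protein of the stalk through which the large subunit recruits elongation factors. Rps15 (558), a protein of the small subunit head, Rpl9 (480), Rpl8 (443), which lies near the peptidyl transferase centre, and Rps29 (424) followed in CPM per kilobase. The other stalk protein of the rule, Rplp2, was at 128 CPM per kilobase, although both are found in the stalk. The values of this pair rest on chosen transcripts of 499 bases for Rplp1 and 964 bases for Rplp2. Rps27a, made as a fusion with ubiquitin, was at 267 CPM per kilobase.

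**Figure D1:**
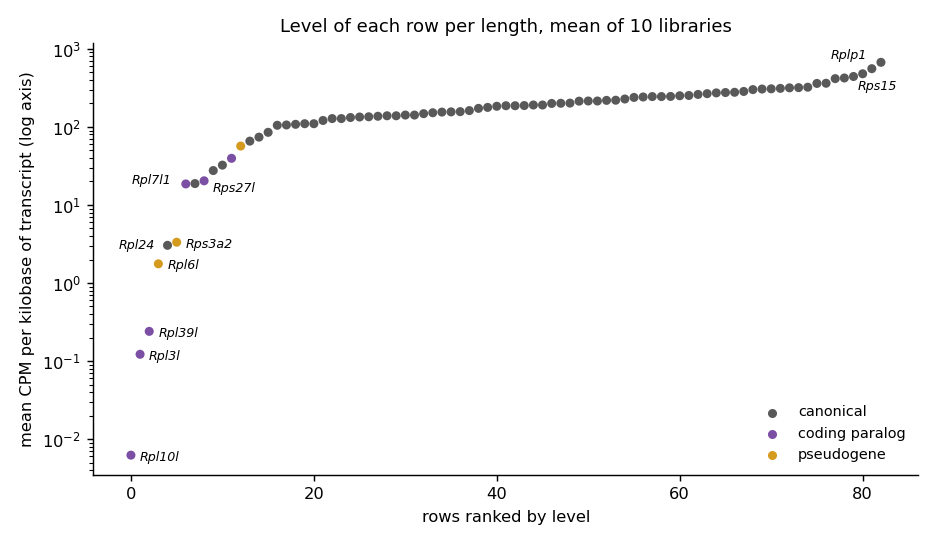
Mean level over 10 libraries of each of the 83 rows, in CPM per kilobase of transcript on a log axis, ranked from lowest to highest. Grey points are canonical genes, purple points coding paralogs and yellow points pseudogenes. Most canonical genes lie on a plateau around the coding median of 188, while Rpl10l, Rpl3l and Rpl39l lie below 1.

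Of the 6 coding paralogs, 3 were close to absent, and the others lay below the coding median of 188 CPM per kilobase: Rpl22l1 was at 39.6, Rps27l at 20.4 and Rpl7l1 at 18.6. Rpl10l, a testis retrogene copy of Rpl10, had 2 reads in W1, or 0.0637 CPM, and 0 in each of the other 9 libraries. Rpl3l, the striated-muscle paralog of Rpl3, ran from 0.0557 to 0.446 CPM, and Rpl39l, a testis-enriched paralog of Rpl39, from 0 to 0.371 CPM. These 3 did not pass the filter on low counts and were not tested, so 80 of the 83 members were. Rpl22l1, the paralog of Rpl22, was at 18.6, 25.4, 20.4, 20.95 and 18.6 CPM across W1-W5 and 21.5, 27.7, 21.2, 23.7 and 20.6 CPM across K1-K5. Rps27l, the paralog of Rps27, ran from 8.93 to 11.2 CPM in wild type and from 9.02 to 11.6 CPM in the other group. The groups overlapped in both. Rpl7l1, named as a paralog of Rpl7, ran from 40.7 to 53.7 CPM in wild type and from 44.6 to 51.8 CPM in the libraries labelled knockout. Log2 ratios, libraries labelled knockout over wild type, were 0.14 ± 0.10 (SE, n = 5) for Rpl22l1, 0.18 ± 0.11 for Rps27l and 0.05 ± 0.08 for Rpl7l1, and edgeR's quasi-likelihood test gave adjusted p of 0.602, 0.496 and 0.865.

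The canonical genes lowest per kilobase reached into the range of these paralogs. Rpl24 was at 3.04 CPM per kilobase, Rpl13a at 18.8, Rps15a at 27.6, Rps20 at 32.4, Rpl35 at 65.8 and Rpl23a at 74.0. The values of Rps15a and Rps20 rest on chosen transcripts of 5130 and 3706 bases. Before division by length, Rps15a ran from 126 to 155 CPM and Rps20 from 107 to 141 CPM, so their low values come from the length used. Rpl24, a large subunit protein at the subunit interface, was at 2.42, 1.89, 2.22, 2.32 and 1.57 CPM across W1-W5 and 1.39, 2.37, 1.73, 2.79 and 1.91 CPM across K1-K5, and the ranges of the groups overlapped widely. Its processed pseudogene Gm9385, identical over 99.79% of the aligned bases, and Gm12254, at 98.93%, had 453 and 624 counts over the 10 libraries. Rpl13a ran from 14.9 to 25.7 CPM, and Rpl23a from 34.9 to 51.3 CPM. Rpl13a, Rps15a, Rps20 and Rpl35 were picked out after their values were seen. The sources used here do not give how reads that match several places were counted, so the counts behind all these levels are uncertain.

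Of the 80 tested members, 1 was called between the groups by edgeR (adjusted p under 0.05), and it is a pseudogene row. Over all genes, 385 of 18965, or 2.03%, were called, of which 163 were higher in the libraries labelled knockout and 222 lower. No coding member was called: 0 of 77, with 4 at an unadjusted p under 0.05, where the share over all genes was 13.8%. DESeq2 called 1 of them, Rpl34, and limma-voom 0. Among members, 1 row had all libraries labelled knockout above all wild-type libraries (Rpl34) and 1 had them all below (Rps3a2), while 3.48% of all tested genes had groups that did not overlap in either direction. In the authors' deposited table, 2 of 82 members with an adjusted p passed 0.05, Rpl34 and Rps3a2, beside 3.37% of all genes.

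The called row was Rps3a2 (ENSMUSG00000062611.4, chromosome 14, 88123017 to 88123808, GRCm38), a processed pseudogene of Rps3a1, which encodes the small subunit protein eS1. It had 129, 152, 266, 148 and 93 reads across W1-W5 and 28, 32, 37, 27 and 20 across K1-K5. Every library labelled knockout lay below every wild-type library. The level fell from between 2.75 and 7.03 CPM to between 0.587 and 1.03 CPM, a log2 ratio of -2.44 (SE 0.25, n = 5, edgeR adjusted p = 4.81e-05).

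Both of its relatives that the rule leaves out were also called, in opposite directions. Rps3a1, the coding gene, had 3761, 4641, 2213, 4196 and 3836 counts across W1-W5 and 7129, 7456, 6178, 6333 and 5753 across K1-K5, a log2 ratio of 0.79 (SE 0.17, n = 5, edgeR adjusted p = 0.0205). Rps3a3, a second copy, had 1086, 1261, 2432, 1131 and 1023 counts across W1-W5 and 86, 67, 65, 34 and 49 across K1-K5 (log2 ratio -4.52, SE 0.25, edgeR adjusted p = 3.36e-08). W3 had the fewest Rps3a1 reads of all 10 libraries and the most reads of both Rps3a2 and Rps3a3. Summed over the 3 rows, the level was 152 ± 22.5 CPM in wild type and 190 ± 17.3 CPM in the libraries labelled knockout (SD, n = 5), and the groups overlapped.

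The coding sequence of Rps3a1 differs from Rps3a2 at 4 of 792 aligned bases and from Rps3a3 at 8 of 791. Bases 519 to 668, counted from the A of the Rps3a1 start codon, are shown for all 3 because no other stretch of 150 bases holds more of the differing positions; the 5 positions at which the 3 are not alike are in capitals (GENCODE M21 transcripts, GRCm38).
Rps3a1: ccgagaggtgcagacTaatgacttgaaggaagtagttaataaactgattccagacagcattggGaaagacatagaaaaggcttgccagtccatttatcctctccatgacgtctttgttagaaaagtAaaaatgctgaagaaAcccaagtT
Rps3a2: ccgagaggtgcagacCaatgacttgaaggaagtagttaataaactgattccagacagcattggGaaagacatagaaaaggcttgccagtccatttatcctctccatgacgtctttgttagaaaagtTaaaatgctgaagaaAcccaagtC
Rps3a3: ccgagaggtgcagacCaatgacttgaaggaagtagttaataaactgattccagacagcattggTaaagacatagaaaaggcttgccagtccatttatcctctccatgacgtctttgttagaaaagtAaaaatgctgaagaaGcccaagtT

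Fold changes of the 77 tested coding members were small and mostly on the positive side. They ran from -0.12 to 0.53 on the log2 scale, with 72 of 77 between -0.2 and 0.2 and a median SE of 0.091. The 95% intervals lay within 0.5 of no change for 73 of the 77, and over all 77 they reached from -0.48 to 0.88. Over the 80 tested members, 67 were positive (83.8%) with a median of 0.076, beside 50.4% positive and a median of 0.0018 over all tested genes. The direction was alike in both subunits: 40 of 47 tested large subunit genes were positive with a median of 0.083, and 25 of 30 small subunit genes with a median of 0.059. The median depended on single libraries: it was 0.155 without W2, 0.034 without K2 and 0.039 without W4, with 77, 55 and 57 of the members positive. Without K5, the library with another index, 1 member was called, 76 were positive and the median was 0.109. Members do not vary independently across the libraries, so the count of positive members is a description only.

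**Figure D2:**
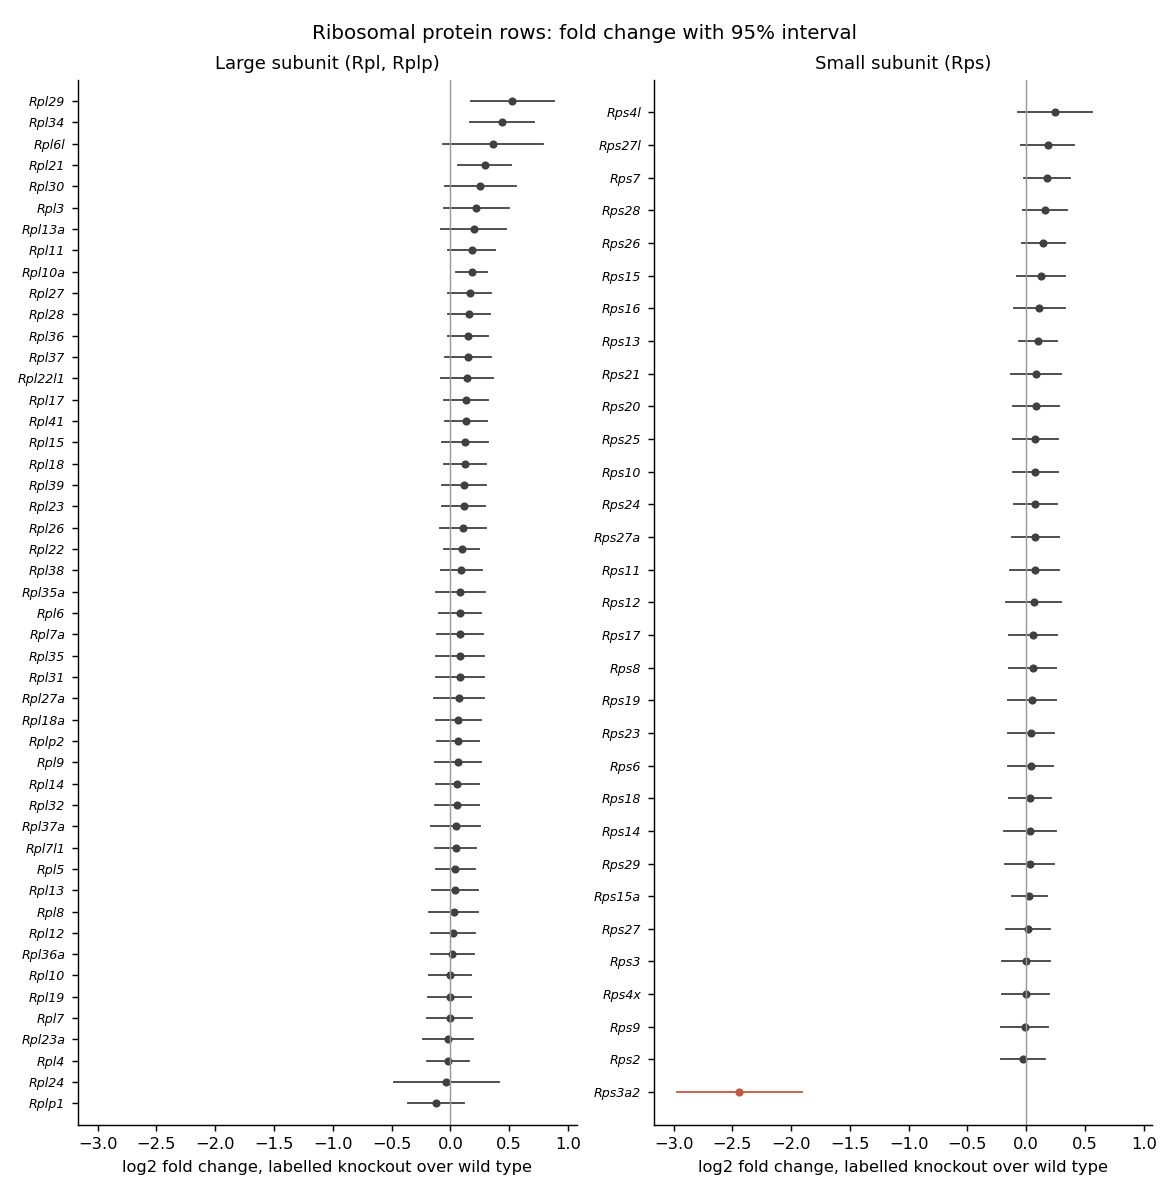
Log2 ratio, libraries labelled knockout over wild type, of 79 of the 80 tested rows with its 95% interval, in separate panels for large and small subunit genes. Rps3a2, in red, is the only one with an edgeR adjusted p under 0.05; the coding members lie between -0.12 and 0.53.

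The largest positive values belonged to the large subunit. Rpl34 (ENSMUSG00000062006.12, chromosome 3, 130726831 to 130730398) was at 72.1, 88.1, 75.9, 50.5 and 89.1 CPM across W1-W5 and 99.5, 121, 90.5, 101 and 98.3 CPM across K1-K5. The groups did not overlap, but the lowest library labelled knockout, K3, lay just above the highest wild-type library, W5. The log2 ratio was 0.44 (SE 0.13, n = 5) and the edgeR adjusted p 0.0985. Without W2, Rpl34 was called (log2 ratio 0.50, edgeR adjusted p 0.0451), and over all 21 alternatives its adjusted p ran from 0.0168 to 0.213.

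Rpl29 (ENSMUSG00000048758.14, chromosome 9, 106429454 to 106431568) had the largest fold change of the coding members. It was at 57.5, 70.8, 110.1, 56.1 and 103 CPM across W1-W5 and 113, 130, 99.0, 123 and 108 CPM across K1-K5. W1, W2 and W4 were low, while W3 and W5 lay within the range of the libraries labelled knockout. The log2 ratio was 0.53 (SE 0.17, n = 5). The edgeR adjusted p was 0.142, became 0.0385 without W3 and ran from 0.0188 to 0.337 over all 21 alternatives.

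Rpl21 was at 164, 234, 180.1, 157 and 155 CPM across W1-W5 and 219, 238, 199.6, 229.7 and 203 CPM across K1-K5, so that W2 lay within the range of the libraries labelled knockout and the other wild-type libraries lay below it. Its log2 ratio was 0.29 (SE 0.11, n = 5). The edgeR adjusted p was 0.209 and became 0.00684 without W2. Rpl10a, the protein of the L1 stalk, was at 178, 186, 200.2, 185 and 183 CPM across W1-W5 and 213, 201, 199, 224 and 220.3 CPM across K1-K5. The groups overlapped only through K3. Of these genes it had the smallest SE, with a log2 ratio of 0.18 (SE 0.06, edgeR adjusted p = 0.196). Rpl11, which joins the 5S RNA particle that binds Mdm2, and Rpl27, Rpl28 and Rpl36 had log2 ratios between 0.15 and 0.18 with edgeR adjusted p from 0.419 to 0.433. The groups overlapped in all 4.

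Coding members on the negative side had log2 ratios of -0.12 or closer to 0. Rplp1 was at 366, 450, 302, 287 and 343 CPM across W1-W5 and 350, 362, 283, 307 and 307 CPM across K1-K5, a log2 ratio of -0.12 (SE 0.11, n = 5, edgeR adjusted p = 0.704). Rpl4, Rpl23a, Rpl24, Rps2 and Rps9 had log2 ratios from -0.04 to -0.01 with edgeR adjusted p of 0.942 or more. Among the most abundant members, log2 ratios were 0.03 ± 0.10 for Rpl8, 0.06 ± 0.09 for Rpl9, 0.12 ± 0.10 for Rps15 and 0.03 ± 0.10 for Rps29 (SE, n = 5), and the ranges of the groups overlapped in each. The other stalk protein, Rplp2, had 0.07 ± 0.08 and the ubiquitin fusion Rps27a 0.08 ± 0.09, with edgeR adjusted p of 0.794 and 0.790.

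Of the other pseudogene rows, Rps4l, a copy of the X-linked Rps4x, was at 43.2, 50.3, 43.2, 44.6 and 24.1 CPM across W1-W5 and 41.5, 55.8, 50.2, 45.6 and 50.4 CPM across K1-K5. Only W5 stood apart. The log2 ratio was 0.25 (SE 0.15, n = 5, edgeR adjusted p = 0.504). Rpl6l, named as a copy of Rpl6, ran from 0.955 to 1.66 CPM in wild type and from 1.29 to 1.98 CPM in the libraries labelled knockout (edgeR adjusted p = 0.458).

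Summed over the 83 rows, ribosomal protein genes took 11233, 14411, 11800, 10645 and 11204 CPM across W1-W5 and 12970, 13774, 11321, 12819 and 11592 CPM across K1-K5. W2 was the highest library of all, and the groups overlapped. The means were 11859 ± 1484 CPM in wild type and 12495 ± 1020 CPM in those labelled knockout (SD, n = 5). These are 1.19% and 1.25% of the reads, and the difference was smaller than either SD. The ratio of the means was 1.05, and 1.11 without W2. In bulk retina, fewer cells of a type and less RNA per cell cannot be told apart.

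**Figure D3:**
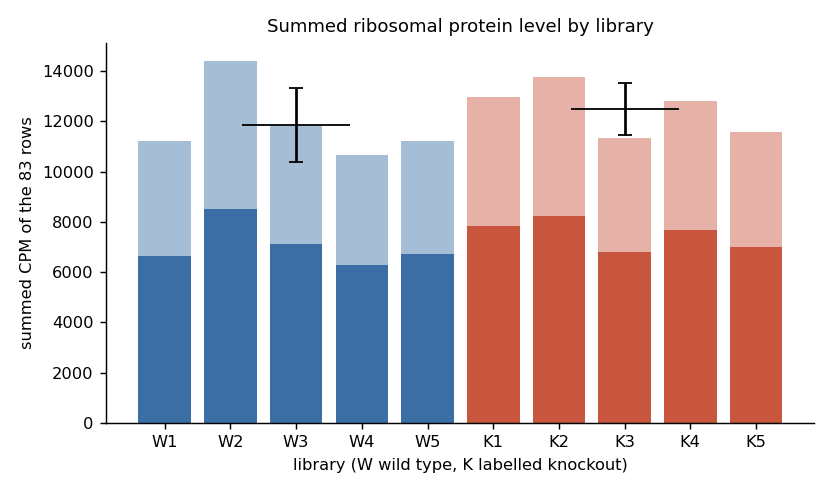
Summed CPM of the 83 rows in each library, with the large subunit genes in the darker and the small subunit genes in the lighter part of each bar; black marks give the mean and SD of each group of 5. W2 is the highest at 14411 and W4 the lowest at 10645, and the ranges of the groups overlap.

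Much of the variation of the typical coding member was shared with the other members of the same library, though not for every gene. Expressed as the log2 difference from each gene's own mean over the 10 libraries, the median coding member was at -0.109, 0.258, -0.049, -0.187 and -0.110 across W1-W5 and 0.095, 0.185, -0.105, 0.102 and -0.070 across K1-K5. Of the 77 tested coding members, 74 lay above their own mean in W2 and 77 in K2, but 1 in W4 and 7 in K3. The median over all tested genes stayed between -0.003 and 0.008, but TMM scaling itself holds that median close to no change. The SD of the median member across libraries was 0.157 on the log2 scale, and 0.062 once the library's member median was subtracted, beside 0.185 for the median tested gene. The ratio of large to small subunit sums ran only from 1.444 to 1.516 over the 10 libraries.

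Other gene groups also varied across these libraries. Of the Muller glia markers (10 of 10 tested), none was called by edgeR and 1 had an unadjusted p under 0.05, beside 13.8% of all tested genes. They summed to 8897 CPM in W2 and to between 6398 and 7086 CPM in the other wild-type libraries. In the libraries labelled knockout they summed to between 6576 and 7909 CPM, and K2 was highest. K3 came next at 7525 CPM, with a ribosomal protein member median of -0.105. The 13 messenger RNAs of mitochondrial DNA summed to 36152 CPM in W2, between 25821 and 33241 CPM in the other wild-type libraries, and between 29443 and 40184 CPM in the libraries labelled knockout. Rod markers ran from 61109 CPM in K2 to 85599 CPM in K1, with 85016 CPM in W2, and each of these libraries had a positive member median. The part of cell composition in the shared variation was not tested.

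**Figure D4:**
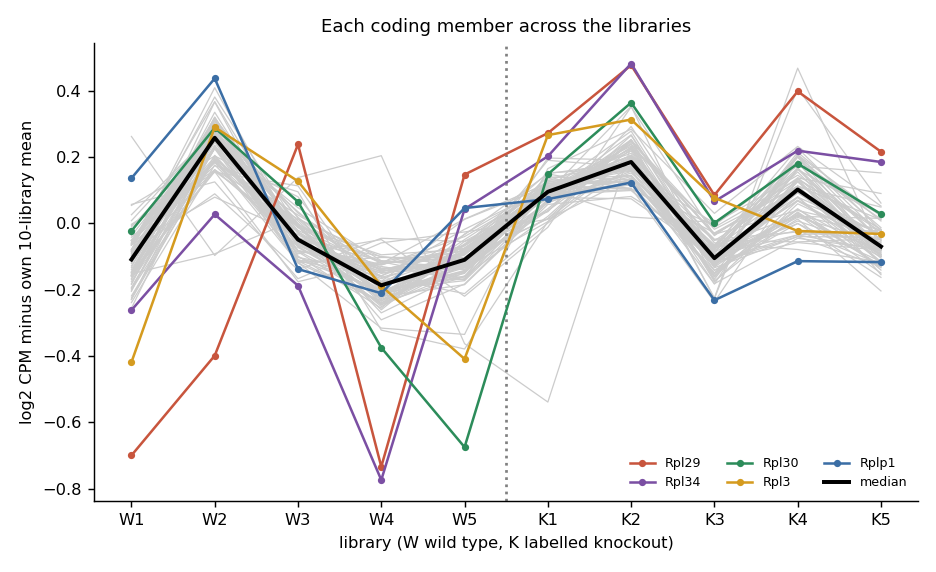
Log2 CPM of each tested coding member minus its own mean over the 10 libraries; grey lines are single genes, the black line is their median, and 5 genes that depart from it are in colour. Lines only join the values of 1 gene, since the libraries have no order. Nearly all members are raised in W2 and K2 and low in W4, while Rpl29 is low in W1, W2 and W4 and Rpl30 in W5.

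Against that shared pattern, single genes stood apart in libraries of both groups. After the library median was subtracted, Rpl29 was at -0.591, -0.657 and -0.547 in W1, W2 and W4 and between 0.177 and 0.296 in the other 7 libraries. Rpl24 was at -0.634 in K1 and -0.355 in W2, and at 0.391, 0.371 and 0.366 in W4, W1 and K4. It had only 51 to 93 reads in each library, and its log2 ratio had an SE of 0.21 beside a coding median of 0.091. Rpl34 was at -0.587 in W4, and Rpl30, a large subunit protein, was at -0.565 in W5. Rpl3, which reaches towards the peptidyl transferase centre, was at -0.310 in W1 and -0.299 in W5. Rplp1 was above the median in W1, W2 and W5, at 0.245, 0.179 and 0.156. Rpl10a was at -0.350 in W2 and Rpl13a at 0.305 in K4. Rpl3, Rpl13a and Rpl30 were picked out after their values were seen.

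Near-identical rows elsewhere in the genome were looked for, because reads can pass between a member and its copies. A total of 886 rows, 871 of them annotated as pseudogenes, matched a coding member at 90% identity or more, and 77 members had at least 1. Together they held 3.07% as many counts as the coding members. Of the 281 that passed the filter, edgeR called 6, or 2.14% (1 higher and 5 lower with the knockout label), near the 2.03% of all genes. Several copies varied widely from library to library: 12 reached 50 counts in some library with at least a 5-fold range over the libraries. These 12 were chosen after their values were seen.

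The clearest of these was Gm8210, a copy of Rpl29 on chromosome 1 (43189156 to 43189638). It had 128, 154, 1, 126 and 0 counts across W1-W5 and 0, 0, 1, 0 and 0 across K1-K5. Rpl29 itself had 1805, 2291, 4167, 2248 and 3492 counts across W1-W5 and 4140, 4606, 3558, 4102 and 3693 across K1-K5. The 3 libraries with Gm8210 reads, W1, W2 and W4, were the 3 with the fewest Rpl29 reads, and the other 2 wild-type libraries were like those labelled knockout. With the counts of all its copies added, Rpl29 had a log2 ratio of 0.46 (edgeR adjusted p = 0.125).

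The copy differs from the Rpl29 coding sequence at 3 of 480 bases. Bases 274 to 423 from the start codon are shown because they hold 2 of the 3 differing positions, in capitals (GENCODE M21 transcripts, GRCm38).
Rpl29: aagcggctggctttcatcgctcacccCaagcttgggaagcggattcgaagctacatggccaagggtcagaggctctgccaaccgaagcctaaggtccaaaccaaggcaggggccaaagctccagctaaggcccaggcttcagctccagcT
Gm8210: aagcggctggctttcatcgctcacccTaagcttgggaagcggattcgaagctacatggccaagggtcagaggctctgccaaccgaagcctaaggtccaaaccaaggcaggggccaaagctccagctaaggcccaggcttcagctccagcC

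Rpl3 and its copy Rpl3-ps1 on chromosome X (13202571 to 13203780) showed the same opposition. Rpl3-ps1 had 983, 97, 95, 609 and 1089 counts across W1-W5 and 137, 113, 106, 81 and 88 across K1-K5. Rpl3 had 7854, 13223, 13810, 11736 and 8507 counts across W1-W5 and 14765, 14711, 12667, 10964 and 11131 across K1-K5, so W1 and W5, the highest for the copy, were the lowest for the parent. The copy was called as lower in that group, at a log2 ratio of -2.50 (edgeR adjusted p = 0.0340), although W2 and W3 were as low as those libraries. Rpl3 had a log2 ratio of 0.22 (SE 0.13, n = 5, edgeR adjusted p = 0.501). The pair differs at 2 of 1209 coding bases, and the first 150 bases hold 1 of them, in capitals (GENCODE M21 transcripts, GRCm38).
Rpl3: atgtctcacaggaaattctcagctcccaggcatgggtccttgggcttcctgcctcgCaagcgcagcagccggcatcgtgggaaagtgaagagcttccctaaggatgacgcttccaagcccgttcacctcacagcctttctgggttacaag
Rpl3-ps1: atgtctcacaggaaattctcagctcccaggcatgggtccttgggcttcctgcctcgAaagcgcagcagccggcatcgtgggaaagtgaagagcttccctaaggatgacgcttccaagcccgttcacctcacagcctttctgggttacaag

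**Figure D5:**
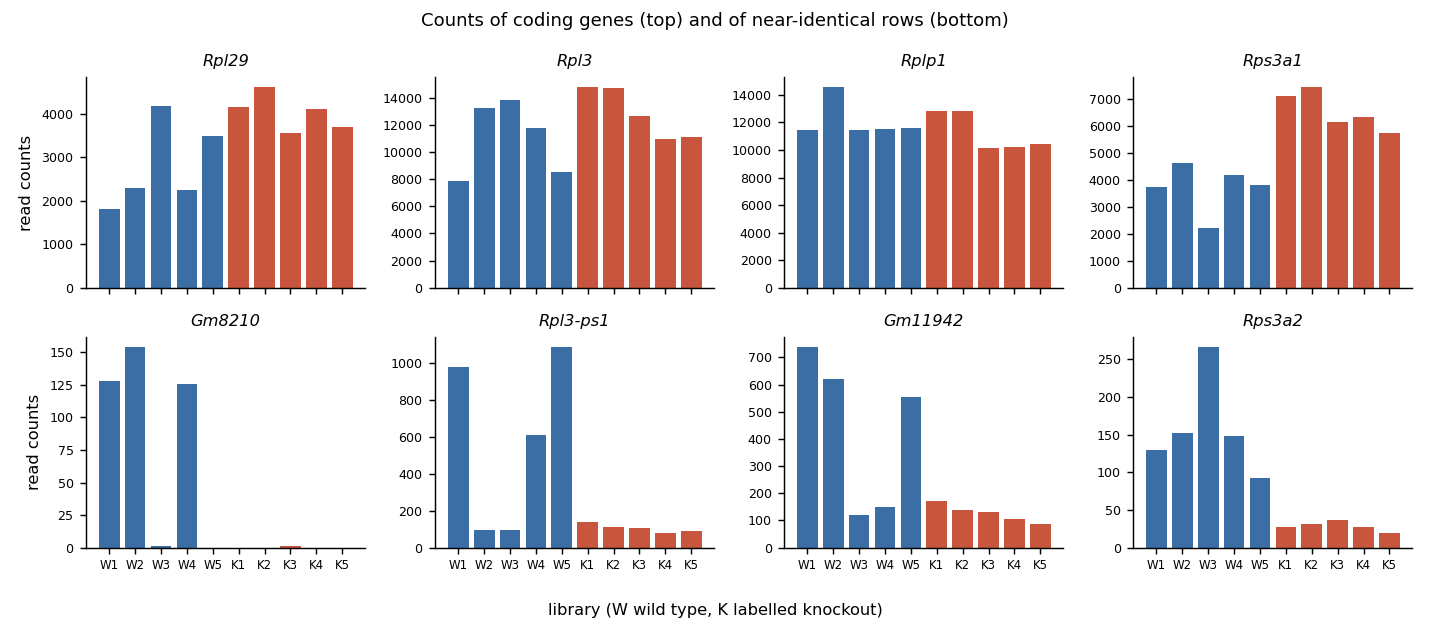
Read counts in each library of 4 coding genes (top) and of a near-identical row of each (bottom), wild type in blue and libraries labelled knockout in red. Gm8210 has reads in W1, W2 and W4, where Rpl29 is lowest; Rpl3-ps1 is high in W1, W4 and W5; Gm11942 is high in W1, W2 and W5; Rps3a2 is lower in all libraries labelled knockout.

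Rpl34-ps1, a copy of Rpl34, had 26, 34, 53, 55 and 13 counts across W1-W5 and 12, 26, 37, 16 and 11 across K1-K5. Its counts were highest in W4 (55) and W3 (53). These counts are not scaled for depth and do not place W4 above W3. W4 had the larger total and TMM factor, 38857374 and 1.03, against 38518301 and 0.983 in W3. Rpl34 was at 50.5 CPM in W4, its lowest library, and at 75.9 CPM in W3. Rpl34-ps1 was not called (edgeR adjusted p = 0.364). Some copies ran the same way as their parents. Gm11942, a copy of Rplp1, had 738, 621, 120, 149 and 554 counts across W1-W5 and between 86 and 170 in the libraries labelled knockout, and W1, W2 and W5 were also the libraries in which Rplp1 lay above the member median. Gm10154, a copy of Rpl34, was the only copy called higher: it had 14, 16, 20, 9 and 27 counts across W1-W5 and 38, 53, 43, 36 and 47 across K1-K5 (log2 ratio 1.31, edgeR adjusted p 0.0257), the direction that Rpl34 also had. Gm6472, a copy of Rps7 on chromosome X, had 204, 293, 147, 138 and 109 counts across W1-W5 and 24, 25, 16, 26 and 23 across K1-K5, with every library labelled knockout below every wild-type library (edgeR adjusted p 4.00e-05). Rps7 itself had a log2 ratio of 0.17 (SE 0.09, n = 5, edgeR adjusted p = 0.435). The part of read assignment between copies and parents in these differences was not tested.

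The start of the members' transcripts was examined for the pyrimidine tract of the TOP motif. Any link between the tract and the shared movement of members across libraries was not tested. RefSeq start windows (GRCm38.p6) were matched by symbol for 60 of the 83 members, with 72 annotated starts. A tract was taken as C followed by at least 5 letters that are C or T, on the strand of the gene, beginning within 10 bases of the annotated start. Such a stretch was present at 35 of 72 member starts, or 48.6%, and at 19.2% of all 32851 starts. The annotated first base was itself such a C in 15.3% of member starts and 1.70% of all starts, whether or not pyrimidines also preceded it. Some annotated starts lie away from the main one in tissue, so a window without a tract says only that these letters are not there.

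Windows of 30 bases, 15 on each side of the annotated start and 5′ to 3′ on the strand of the gene, are shown for members named above, with the tract in capitals from the matching C nearest the annotated start; Rpl34 has 2 annotated starts, and Rpl4 is shown as a member without the tract within the search distance.
Rpl28, chr7:4792950-4792979, plus strand: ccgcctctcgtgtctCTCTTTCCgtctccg
Rplp2, chr7:141447636-141447665, plus strand: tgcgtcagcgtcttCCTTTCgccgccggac
Rps9, chr7:3704026-3704055, plus strand: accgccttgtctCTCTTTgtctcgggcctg
Rpl34, first, chr3:130730323-130730352, minus strand: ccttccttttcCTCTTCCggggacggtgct
Rpl34, second, chr3:130730384-130730413, minus strand: cgccttccctgacgtaCTTCCTgtccggcg
Rpl4, chr9:64173372-64173401, plus strand: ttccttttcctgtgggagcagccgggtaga
In Rpl28 the annotated first base is such a C; in Rplp2, Rps9 and Rpl34 the nearest one lies a few bases to either side. Pyrimidines also stand directly before the capitals in Rpl28, Rplp2, Rps9 and the first Rpl34 window, so the capitals mark only part of those runs.

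Lists of genes around the ribosome had medians within 0.05 of no change on the log2 scale. A list of ribosome-related rows outside the rule does not hold Rps3a1, which was called higher as given above. Of that list 0 of 7 tested were called, with a median log2 ratio of -0.01 beside 0.0018 over all genes. Chaperones and importers of ribosomal proteins (0 of 14 called, median -0.05), initiation factors (0 of 35, median -0.01), elongation factors (0 of 16, median -0.02) and the mTOR arm that controls TOP messages (0 of 24, median -0.04) were alike. Over all tested genes 2.03% were called. Of these 5 lists, 1, 2, 3, 1 and 2 genes had an unadjusted edgeR p under 0.05, beside 13.8% of all tested genes. The sum of elongation factors was also highest in W2, at 5441 CPM against at most 4667 CPM in the other wild-type libraries.

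In the lists for making ribosomes, 1 of 15 and 1 of 56 tested genes were called, beside 2.03% over all genes, and no more is read from these counts. Taf1b, a subunit of the factor that recruits RNA polymerase I to ribosomal DNA, went from 19.8 ± 0.983 to 15.5 ± 0.476 CPM (SD, n = 5), a log2 ratio of -0.35 (SE 0.07, edgeR adjusted p = 0.0222), and was the 1 gene called in transcription of ribosomal RNA. Utp20, which acts in early processing of the small subunit, went from 34.7 ± 2.12 to 26.4 ± 3.66 CPM, a log2 ratio of -0.40 (SE 0.09, edgeR adjusted p = 0.0328), the 1 gene called in ribosome biogenesis, where the median was -0.04. Over the 8 lists around the ribosome, Gas5 of the next list included, 3 genes were called, and DESeq2 and limma-voom each called 3, but edgeR called 1 when W1, W4, K4 or K5 was left out.

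Among other genes whose messages carry a TOP motif, 1 of 28 was called, beside 2.03% of all genes, and the median log2 ratio was 0.02. That gene was Gas5, a noncoding RNA that hosts small nucleolar RNAs and whose spliced product is degraded when it is translated. It was at 46.5, 46.2, 65.2, 45.4 and 62.1 CPM across W1-W5 and 84.4, 98.3, 83.1, 82.6 and 85.4 CPM across K1-K5. All libraries labelled knockout lay above all wild-type libraries, and W3 and W5 were above the other 3 wild-type libraries. The log2 ratio was 0.71 (SE 0.11, n = 5, edgeR adjusted p = 0.00153). Lists of p53 and nucleolar stress targets (0 of 11 called by edgeR, 1 at an unadjusted p under 0.05) and of Myc and its partners (0 of 11 called, 0 at an unadjusted p under 0.05) had medians of 0.03 and -0.01. Over all tested genes, 13.8% had an unadjusted edgeR p under 0.05.

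Because members move together, the fit was repeated with library factors taken from the coding ribosomal protein rows alone, a choice made after seeing the data. Then 192 genes, or 1.01%, were called, 46 higher and 146 lower, where the main fit had 163 higher and 222 lower. Relative to the other members, 41 of 80 were positive with a median of 0.002, a balance that this scaling itself brings about. Rps3a2 was again the only member called. Rpl34 was at 0.37 (edgeR adjusted p = 0.187) on this scale, and Rplp1 at -0.19 with 0.446. With the counts of all matching copies added to their parents, also chosen after seeing the data, 379 of 18684 genes (2.03%) and 1 member, Rps3a2, were called, and 71 of 80 members were positive.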

How the data were processed

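The authors deposited whole-number read counts per gene, not normalized, for 10 retina libraries. The submitters' processing notes name STAR 2.5.3a, the build GRCm38.p5, featureCounts 1.15.2 and also DESeq2 1.14, besides bcl2fastq and FastQC. Settings for strand and for reads with several matches are not given in the sources used here. Columns of the authors' own comparison hold, per the file headers, a mean signal of normalized counts (not used), log2 fold changes, p-values, unadjusted and adjusted, and a mark of significance (not used). Rows were matched to GENCODE M21 by identifier, with 83 of 83 members found, 74 of them at the same coordinates; coordinates printed for genes are those of the deposited table.

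Genes with low counts were left out by filterByExpr (minimum count 10, total 15), and the rest were tested in edgeR 4.0.16 (R 4.3.3) with TMM factors and the quasi-likelihood test (glmQLFit and glmQLFTest), genotype being the only term, and with Benjamini-Hochberg adjustment over 18965 genes. A gene was called at an adjusted p under 0.05. Log2 ratios are edgeR's log2 fold changes; the SE was derived from each ratio and its F statistic, and intervals are 95%. The script was tested on simulated data. Level per kilobase divides the mean CPM by the length of 1 transcript per gene, chosen by its APPRIS rank. Copies were found with blastn 2.17.0 (same strand, at least 90% identity, 50% of the row covered, 100 aligned bases). Other fits used DESeq2 1.42.0, limma 3.58.1 and sva 3.50.0.

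Members named with values were those called, the 8 with the lowest unadjusted p in each direction, those whose groups did not overlap, the 5 highest and 5 lowest per length, and those with a stated role; some genes that this rule or the lists hold are not reported here. The members, lists and rules were chosen with earlier results of these data known. No adjusted p over the members alone and no p for their sum was computed. W and K numbers follow accession order and pair no libraries.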

Additional observations from a re-analysis of the deposited data

Results flagged for a closer look

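A library was singled out where its gap to the nearest other library of its group exceeded 0.71 of the group's range, which chance does in about 1 in 20 groups. Of 60 groups examined (each named member and the summed level, in wild type and in libraries labelled knockout), 12 met this. In 9 of them the library was W2 and its level was high: 195 CPM for Rpl11 (other wild-type libraries 140.3 to 153), 93.9 for Rpl27 (68.2 to 73.9), 198 for Rpl28 (149 to 161), 472 for Rpl8 (336 to 358), 423 for Rpl9 (314 to 337), 147 for Rplp2 (111 to 118), 337 for Rps15 (241 to 257), 11.2 for Rps27l (8.93 to 9.31) and 204 for Rps29 (149 to 158). These genes rise and fall together across libraries, so the 9 are not independent. W5 was low for the pseudogene row Rps4l, at 24.1 CPM, while W1 to W4 ran from 43.2 to 50.3. The remaining 2 concern rows near 0: Rpl10l had 0.0637 CPM in W1 and 0 in W2 to W5, and Rpl39l had 0.323 CPM in K5 and 0 to 0.09 in the other libraries labelled knockout.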

How the results depend on the processing

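No paired analysis was possible because the labels carry no replicate numbers. Called members, called genes and named members were recomputed under 21 alternatives, 2 of them (library factors from ribosomal protein rows, and sequence copies added to their parents) chosen after seeing the data. The summed level had 20 alternatives, 1 of them chosen so. For the translation pathway lists (21) and for pseudogene-named rows added to their parents (19), all alternatives were added after seeing the data. The called member Rps3a2 was called under all 21, with log2 ratios from -2.57 to -2.21. The count of called members was 1 and became 3 with no low-count filter (Rpl34, Rpl29), 2 in DESeq2 (Rpl34) and 3 with 1 surrogate variable (Rpl34, Rpl21), and ran from 1 to 3 when each library was left out. With rows named as pseudogenes added to their parents it was 1, and 3, 2 and 4 under the same settings, and from 1 to 3 over the libraries left out. Called genes over the whole table numbered 385, and 704 with no filter, 763 in DESeq2, 692 with a surrogate variable, 192 when scaled to ribosomal protein rows, and from 211 (without K4) to 542 (without W2) with 1 library left out. In the lists of the translation pathway, the count of 3 became 1 when scaled to ribosomal protein rows and ran from 1 to 4 over the libraries left out. The ratio of summed levels ran from 1.03 (without W4 or K2) to 1.11 (without W2), and the number of positive members from 55 (without K2) to 78 (without K3) among libraries left out.

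Of 546 values of named members, 507 kept direction and call, 8 passed the threshold (4 for Rpl34, and 2 each for Rpl29 and Rpl21) and 31 changed sign, in 10 members whose log2 ratios lie close to 0. With ribosomal protein scaling, Rpl7l1 was at -0.031, Rpl8 at -0.043, Rpl9 at -0.009, Rplp2 at -0.006 and Rps29 at -0.044. With 1 surrogate variable Rpl23a was at 0.001, and with copies added Rpl23a was at 0.013 and Rpl24 at 0.153. Leaving out 1 library gave ranges of -0.062 to 0.069 for Rpl23a, -0.174 to 0.075 for Rpl24, -0.057 to 0.024 for Rpl4, -0.008 to 0.091 for Rpl7l1, -0.009 to 0.126 for Rpl8, -0.065 to 0.048 for Rps2, -0.036 to 0.120 for Rps29 and -0.071 to 0.037 for Rps9. The cause was not tested. Rpl3l, Rpl10l and Rpl39l were left out of the tests by their low counts. Rpl24 and Rpl6l, the tested members with the fewest counts, had SEs of 0.21 and 0.20, where the coding median was 0.091.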
